A study of Mus musculus with 137 samples.

Results

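The untreated duodenal villus was represented by 9 of the 137 libraries of the study, chosen by their sample labels (villus, 0 ppm, 90 or 7 days) and with every probe of the assay kept. Of these, 4 libraries came from mice 3, 5, 6, and 7 at day 91 and 5 from mice 46, 47, 48, 49, and 50 at day 8, 1 mouse per library. All were female B6C3F1 mice labeled wildtype that drank tap water (0 ppm) in a study of Cr(VI), which other mice drank as sodium dichromate dihydrate over the same 7 or 90 days. Formalin-fixed, paraffin-embedded transverse sections were mounted on slides, and villi were scraped into lysis buffer from the section from which crypts had been removed. Expression was measured by TempO-Seq, in which neighboring probe pieces bound to an RNA are joined and sequenced, so that each value is a read count of a probe. The villus library of mouse 8, the remaining untreated mouse with a day 91 crypt library, was not analyzed here. The same days were also compared in 3 other sets of libraries to set the untreated villus in context. These were the crypts of untreated mice (5 libraries at each day, mice 3 and 5 to 8 against 46 to 50) and the villi of other mice at 0.1 and at 1.4 ppm (5 libraries at each day). Ages of the mice are not given in the sources used here. The mice of the 2 days were different animals, and the age of the mice, the time on study, and the occasion of collection cannot be told apart.

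The villus is the absorptive projection of the small intestine. Its surface is lined mainly by enterocytes that are born by division in the crypts, leave the cell cycle, move upward, and are shed at the tip, together with goblet, enteroendocrine, and tuft cells, and its core holds immune cells, vessels, and matrix-producing fibroblasts. Enterocytes digest and absorb nutrients, and they carry oxidizing and conjugating enzymes that process foreign compounds arriving from the lumen. Paneth cells, which secrete lysozyme and alpha-defensins, lie at the base of the crypts, below the villus.

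Total counts at day 91 were 1831513 for mouse 3, 1667014 for mouse 5, 2513874 for mouse 6, and 2678299 for mouse 7. At day 8 they were 2478093, 3165592, 3580108, 2405384, and 4054136 for mice 46 to 50. The groups overlapped, and the means of 2172675 ± 498049 (SD, n = 4) and 3136663 ± 708470 (SD, n = 5) gave a two-sided exact permutation p of 0.0794, where the smallest p this design allows is 0.0159. Probes with at least 1 count numbered 13487, 13091, 14486, and 15835 at day 91 and 15141, 14791, 20394, 13832, and 18861 at day 8 (exact permutation p = 0.214, and 0.214 after thinning every library to 1463938 counts). Mice 48 and 50 stood above the other 7 libraries in this number, and results are therefore also given without them. Depth was lower at day 91, and its part in the results below was not tested beyond the alternatives given.

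The label was checked against marker genes, with levels given as CPM, counts divided by the TMM-scaled library size in units of 1e6. *Vil1*, which encodes the brush border protein villin, ran from 5831 to 7831 CPM at day 91 and from 5084 to 9825 CPM at day 8, and the villus marker *Klf4* from 102 to 142 CPM and from 28.6 to 119.6 CPM. *Ephb2*, a receptor of crypt base cells, reached at most 19.9 CPM in villi and at least 41.6 CPM in crypts at day 91, but ranged from 7.38 to 63.1 CPM in villi and from 25.9 to 109.9 CPM in crypts at day 8. In untreated crypts *Vil1* had levels of 3084 to 5864 CPM at day 91 and 3127 to 8909.7 CPM at day 8, and *Klf4* had levels of 6.55 to 33.5 CPM and 15.1 to 60.8 CPM. *Klf4* and *Ephb2* thus separated the compartments at day 91, whereas all 3 markers overlapped between compartments at day 8. Summed enterocyte markers were 102399, 83206, 95179, and 74221 CPM for mice 3, 5, 6, and 7 and 86156, 102976, 58614, 112094, and 96222 CPM for mice 46 to 50. Mouse 48 was the lowest in enterocyte markers, and it was the highest in proliferation genes and Paneth cell products.

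Summed Paneth cell products were 1395, 1982, 758, and 3600.2 CPM at day 91 and 5733, 10133, 21565, 2504, and 4379 CPM at day 8. Summed proliferation genes were 252, 246, 212, and 706 CPM at day 91 and 533, 399, 1209, 268, and 699 CPM at day 8. Mouse 7 was highest of its group in both sums and lay within the range of day 8. Summed pancreatic acinar products, made by a gland beside the duodenum and not by villus cells, were 33.4, 6175, 38.3, and 58457 CPM at day 91 and 20467, 5128, 9850.3, 42020.2, and 32.6 CPM at day 8. Acinar RNA therefore varied widely within each day, and 0 of the 15 acinar products tested passed the test between days. *Cpa1*, a pancreatic carboxypeptidase, was the most abundant, with a mean of 2353 CPM. B cell markers summed to 487 CPM in mouse 50 and to between 18.7 and 81.5 CPM in the other 8 libraries. In such bulk tissue fewer cells of a type and less RNA per cell cannot be told apart.

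**Figure D1:**
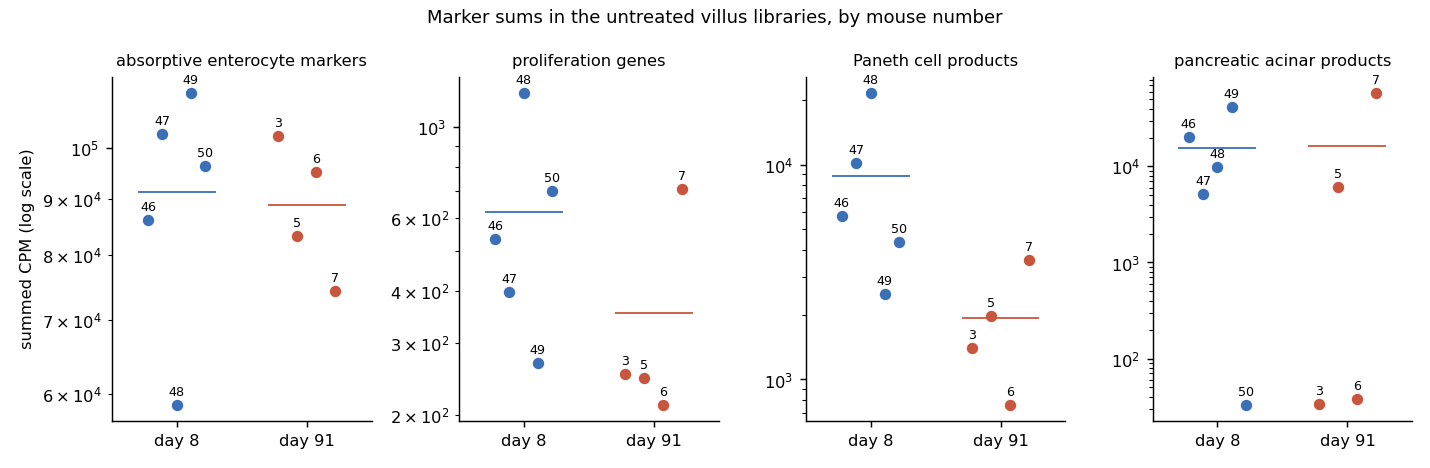
Summed CPM (log scale) of 4 marker lists in each untreated villus library at day 8 (blue) and day 91 (red), with mouse numbers at the points and group means as lines. Mouse 48 was highest in Paneth cell products and proliferation genes, mouse 7 was highest of the day 91 group in both, and acinar products ranged from 32.6 to 58457 CPM.

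At day 91, 644 of 26365 probes differed from day 8 (2.44% of probes) at an adjusted p of 0.1 by the edgeR quasi-likelihood test fitted over all 137 libraries, and these stood for 620 genes (DEGs). Of the DEGs, 196 were higher and 425 lower at day 91, with 1 gene in both counts through different probes. Log2 changes are day 91 over day 8 as fitted, and the median over all probes was -0.14, which was not subtracted from the changes below. This median was 0 when the 5642 probes with at most 3 counts in every library of 1 group were set to the bound that 3 counts allow. The values of the 4 and the 5 libraries did not overlap for 676 probes (2.56%), of which 302 were called. At a threshold of 0.05 the DEGs numbered 301.

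The number of DEGs depended on single libraries and on which libraries entered the fit. It was 142 without mouse 5, 187 without mouse 48, 238 without mouse 3, 359 without mouse 6, 400 without mouse 47, 1037 without mouse 50, and 1109 without mouse 7. In a fit of the villus libraries alone it was 119, and in a fit of these 9 libraries alone 18. Those 2 fits also tested fewer probes, 22884 and 13836. The share of DEGs that were higher at day 91 was 31.6% as reported, 53.1% with DESeq2 size factors, 42.7% with the total count as a covariate, 17.7% with the default form of the quasi-likelihood fit, 45.3% without mouse 50, and 59.4% without mice 48 and 50. Without mice 48 and 50 there were 625 DEGs, 321 of them among the 620. Genes that kept their call without any 1 of the 9 libraries, among the 70 genes followed through every alternative, were *Ugt2b38*, *Car9*, *Mcm2*, *Igkv15-103*, *Mrpl28*, *Mrpl54*, *Surf1*, *Cnbp*, *Mtfr1*, *Mss51*, *Camkk1*, *Med1*, *Kmt2d*, and *Rom1*.

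**Figure D2:**
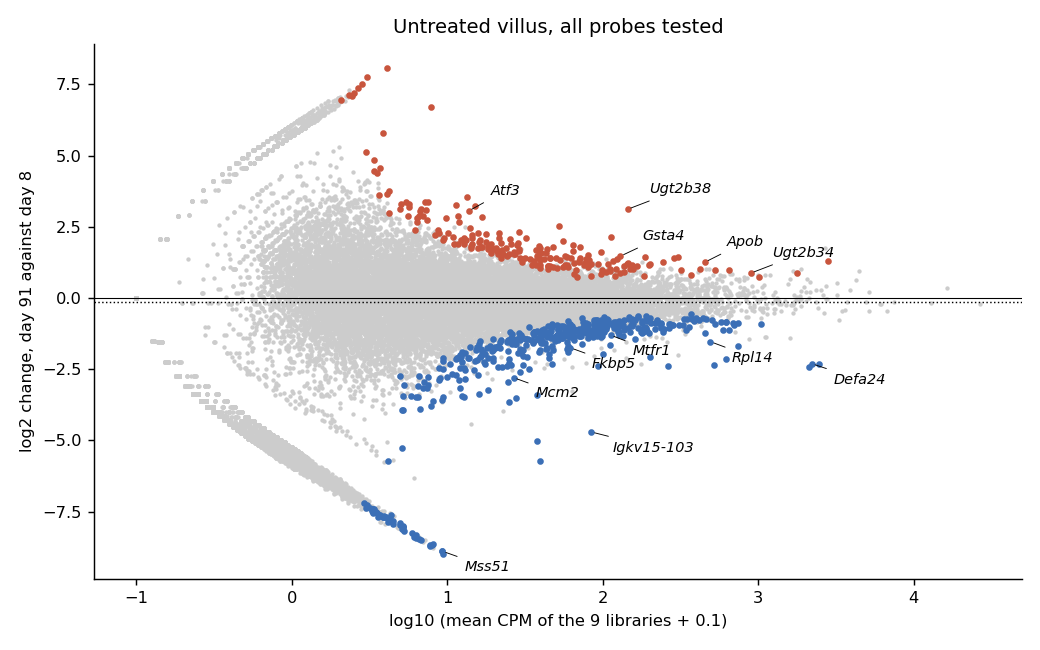
Log2 change from day 8 to day 91 against mean level in the 9 untreated villus libraries (log10 of CPM + 0.1) for every probe tested, with called probes in red (203 higher) and blue (441 lower) and named genes marked. The dotted line is the median of -0.14.

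Of 32 genes of xenobiotic metabolism tested, 4 rose at day 91 and none fell, against 0.647% of all genes higher (each gene by its probe of highest count). The median change was 0.33, against -0.14 over all probes as fitted and 0 with probes at the floor set to their bounds. Their summed levels overlapped between days, at 13266, 12698, 20979, and 14324 CPM at day 91 and 11595, 13786, 8073, 13234, and 11627 CPM at day 8. Background on this group is that UDP-glucuronosyltransferases of the Ugt2b family attach glucuronic acid to lipophilic compounds, cytochromes P450 such as Cyp2c29 oxidize them, glutathione transferases such as Gsta4 conjugate reactive products of lipid peroxidation, and the epoxide hydrolase Ephx1 opens epoxides. *Ugt2b38* is not on the list and was named as one of the highest-ranked DEGs among those without overlap between days. It rose most of these in the untreated villus.

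The sequences upstream of *Ugt2b38* and *Ugt2b5* are shown because these genes of chromosome 5 both rose at day 91 and are paralogs. Each is the 250 bases before the gene's start in RefSeq (GRCm38.p6), read 5′ to 3′ on the minus strand, with capitals marking runs of at least 12 bases that both share in the same order.
Ugt2b38: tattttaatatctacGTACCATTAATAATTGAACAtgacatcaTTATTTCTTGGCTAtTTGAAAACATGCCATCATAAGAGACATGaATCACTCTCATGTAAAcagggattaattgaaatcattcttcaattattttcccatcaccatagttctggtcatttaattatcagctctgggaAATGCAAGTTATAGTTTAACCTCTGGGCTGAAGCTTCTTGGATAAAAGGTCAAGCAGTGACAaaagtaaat
Ugt2b5: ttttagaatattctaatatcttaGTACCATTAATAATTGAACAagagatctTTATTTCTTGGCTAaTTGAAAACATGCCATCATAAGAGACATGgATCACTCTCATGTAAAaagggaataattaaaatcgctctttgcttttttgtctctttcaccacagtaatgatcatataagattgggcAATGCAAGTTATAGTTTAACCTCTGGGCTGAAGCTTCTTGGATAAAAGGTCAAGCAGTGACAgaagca
The window of *Ugt2b38* is chr5:87424204-87424453 and that of *Ugt2b5* is chr5:87140341-87140590. They share 5 such runs, and the longest, of 62 bases next to the start, was found in 3 of 32851 promoters, those of *Ugt2b37*, *Ugt2b38*, and *Ugt2b5*. Transcript and probe sequences were not compared. Whether the probes fully separate these paralogs is therefore not known, and the assignment among members of the family is uncertain.

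*Ugt2b38* (chr5:87409942-87424203, minus strand) was at 239, 400.4, 318, and 171 CPM in mice 3, 5, 6, and 7 at day 91 and at 77.3, 66.7, 0, 15.3, and 9.36 CPM in mice 46 to 50 at day 8. Every day 91 library was above every day 8 library, which was a condition for naming the gene, and mouse 48 had none. The log2 change was 3.11 ± 0.71 (SE) with an adjusted p of 0.0128. The call was lost without mice 48 and 50 (adjusted p = 0.109), with DESeq2 (adjusted p = 0.225), and with the default form of the quasi-likelihood fit (adjusted p = 0.172).

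*Ugt2b5* was at 212, 216, 437, and 278 CPM at day 91 and at 58.4, 102, 114, 138, and 114 CPM at day 8, a log2 change of 1.44 ± 0.37 (SE, adjusted p = 0.0266). *Ugt2b34* was at 1232, 1212, 1202, and 1137 CPM and at 663, 642, 430.3, 796, and 732 CPM, a log2 change of 0.87 ± 0.23 (adjusted p = 0.0284). Neither gene overlapped between days, and the 4 day 91 levels of *Ugt2b34* lay close together. *Cyp2c29* was at 47.9, 27.4, 29.5, and 21 CPM at day 91 and at 6.04, 0, 0, 14.9, and 3.6 CPM at day 8 (log2 2.85 ± 0.72, adjusted p = 0.024). *Gsta4* (chr9:78182774-78209349, plus strand) was at 161, 184, 273, and 185 CPM and at 80.5, 104, 48.8, 68.5, and 62.4 CPM (log2 1.47 ± 0.42, adjusted p = 0.0544). These groups did not overlap either. Calls were lost for *Ugt2b5* without mouse 6 (adjusted p = 0.165), for *Ugt2b34* without mouse 5 (0.104) or 48 (0.113), for *Cyp2c29* without mouse 3 or 48 (0.106 each), and for *Gsta4* without mouse 5 (0.134), 6 (0.192), or 48 (0.16). The list had 4 higher members as reported, 1 without mouse 48, 2 without mouse 5 or 6, 3 without mice 48 and 50, and 2 in a fit of the 9 libraries alone. Of the 4, *Ugt2b5* (adjusted p = 0.051) and *Ugt2b34* (0.097) passed without mice 48 and 50, and *Cyp2c29* (0.148) and *Gsta4* (0.197) did not.

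*Ephx1* (chr1:180976210-181020904, minus strand), chosen after its values were seen because it was called in further comparisons below, has 3 probes that all passed. The probe of highest count was at 125, 66.5, 182, and 115 CPM at day 91 and at 38.6, 99.9, 15.4, 42.5, and 49.4 CPM at day 8. Mouse 5 at day 91 lay below mouse 47 at day 8, and the log2 change was 1.32 ± 0.38 (adjusted p = 0.0522). The other probes gave 1.15 (adjusted p = 0.0916) and 1.87 (adjusted p = 0.00901). The call on the first probe was lost without mouse 3 (0.119), 6 (0.235), 46 (0.103), or 48 (0.204) and without mice 48 and 50 (0.237). *Txn1*, encoding thioredoxin, was 1 of 17 NRF2 targets and rose, where 0.647% of all genes were higher, with a log2 change of 0.99 (adjusted p = 0.0599). It was at 850.4, 974, 1069, and 707 CPM at day 91 and at 380.5, 470.3, 228, 582, and 606 CPM at day 8, with no overlap. Its call was lost without mouse 3, 5, 6, 46, or 48 (adjusted p from 0.113 to 0.21).

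**Figure D3:**
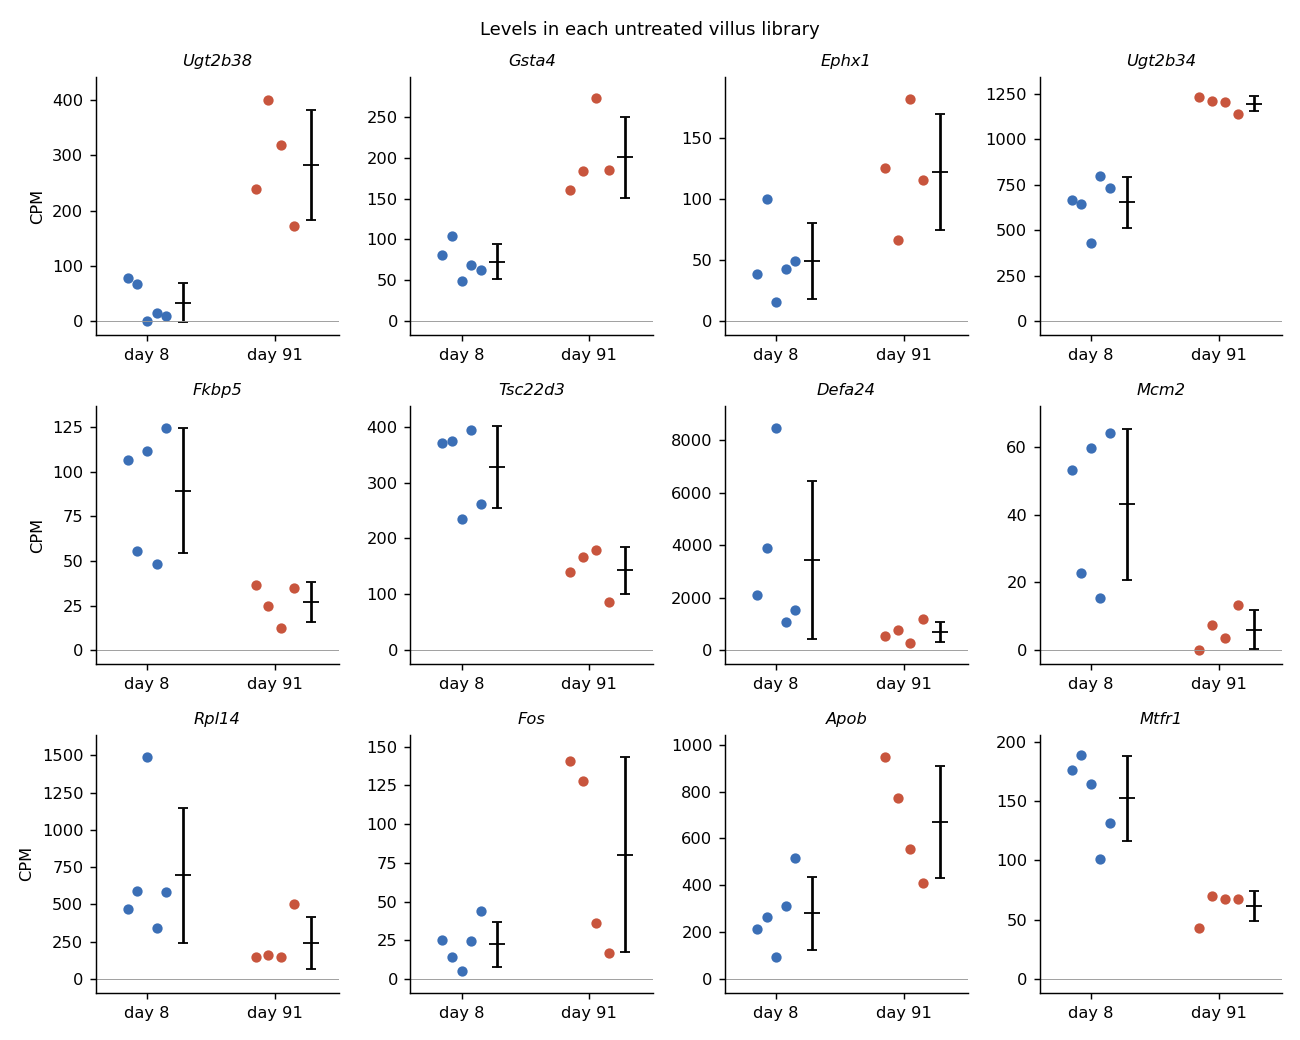
CPM of 12 genes in each untreated villus library at day 8 (blue) and day 91 (red), with the mean and SD in black beside the points. The groups of *Ugt2b38*, *Gsta4*, *Ugt2b34*, *Fkbp5*, *Tsc22d3*, *Mcm2*, and *Mtfr1* did not overlap, whereas those of *Ephx1*, *Defa24*, *Rpl14*, *Fos*, and *Apob* did.

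Genes induced by glucocorticoids, the adrenal steroids, included 3 that fell and 0 that rose among 14 tested, against 1.88% of all genes lower, with a median change of -0.53. *Fkbp5* (chr17:28399094-28517527, minus strand) encodes a co-chaperone that tempers the glucocorticoid receptor. It was at 36.4, 24.8, 12.3, and 34.8 CPM at day 91 and at 107, 55.6, 112, 48.5, and 125 CPM at day 8. All 4 day 91 libraries lay below all 5 of day 8, with a log2 change of -1.75 ± 0.45 (adjusted p = 0.0286), and a further probe gave -2.94 (adjusted p = 0.012). *Tsc22d3*, which encodes the leucine zipper protein GILZ, was at 140.1, 167, 180.1, and 85.3 CPM and at 371, 374, 234, 394, and 263 CPM, again without overlap (log2 -1.19, adjusted p = 0.0382). *Zbtb16*, encoding a zinc finger regulator, was at 0 CPM in mice 3, 5, and 6 and 8.8 CPM in mouse 7, and at 64, 2.68, 20, 31.1, and 16.8 CPM at day 8 (log2 -3.36, adjusted p = 0.0485). Mouse 47 lay below mouse 7, so these groups overlapped. The most abundant member, *Pck1*, a gluconeogenic enzyme with a mean of 772 CPM, did not pass. The call of *Fkbp5* was lost without mouse 5 (adjusted p = 0.114), 6 (0.132), or 48 (0.104) and without mice 48 and 50 (0.174), that of *Tsc22d3* without mouse 3 (0.102), and that of *Zbtb16* without mouse 3 (0.157), 5 (0.184), 6 (0.164), or 46 (0.187). All 3 calls were also lost in a fit of the villus libraries alone (adjusted p from 0.1079 to 0.1171). The same held in a fit of the 9 libraries alone (0.1143 to 0.1908).

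The time of day of collection was not in the sources used here. Of 20 circadian clock genes 1 fell and 0 rose, where 1.88% of all genes were lower. *Clock*, a core activator of the cycle, was at 43.4, 40.1, 62.5, and 70.8 CPM at day 91 and at 196, 131, 155, 99.1, and 56.9 CPM at day 8 (log2 -1.22, adjusted p = 0.0424). Mouse 50 lay within the range of day 91, and the call was lost without mouse 3 (0.143), 5 (0.19), 46 (0.155), or 48 (0.146).

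Of 10 Paneth cell products tested in the villus, 6 fell at day 91 and 0 rose, against 1.88% of all genes lower, with a median change of -2.10 (-2.13 with 1 member at or under 3 counts in every library left out). *Defa24*, an alpha-defensin and the most abundant member, was at 542, 772, 258, and 1192 CPM at day 91 and at 2108, 3904, 8456, 1084, and 1532 CPM at day 8. Mouse 7 lay above mouse 49, so the groups overlapped, and the log2 change was -2.31 ± 0.55 (adjusted p = 0.0167). *Defa22* (log2 -2.42, adjusted p = 0.0261), the ribonuclease *Ang4* (-2.49, adjusted p = 0.0341), the phospholipase *Pla2g2a* (-2.37, adjusted p = 0.0247), *Defa26* (-2.07, adjusted p = 0.0875), and lysozyme *Lyz1* (-1.70, adjusted p = 0.0865) also fell. *Mmp7*, which activates alpha-defensins, had a log2 change of -1.45 with an adjusted p of 0.182. Alpha-defensins are near-identical copies, and their separate values are uncertain.

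The calls of Paneth cell products depended on single libraries. Without mouse 48 the log2 change of *Defa24* was -1.61 (adjusted p = 0.175) and 0 of the members passed, and without mice 48 and 50 it was -1.75 (adjusted p = 0.106) and 1 member passed, while 7 passed without mouse 7, 1 without mouse 6, 2 without mouse 3 or 5, and 4 without mouse 47. In fits of the villus libraries alone 1 passed, and in a fit of the 9 alone 0. The other crypt markers moved alongside, since mouse 48 was also the highest library in proliferation genes and in stem cell markers (976 CPM against 301 to 457 CPM in the other day 8 libraries). The part of crypt tissue left on the villus section in these values was not tested. In the crypts of untreated mice, where Paneth cells lie, 0 of 10 members passed and the median change was -0.44.

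Proliferation genes included 3 members that fell and 0 that rose of 20 tested, against 1.88% of all genes lower, with a median of -0.82 (-0.90 with members at the floor set to their bound or left out). *Mcm2*, a subunit of the replicative helicase, was at 0, 7.39, 3.45, and 13.4 CPM at day 91 and at 53.1, 22.8, 59.6, 15.3, and 64.1 CPM at day 8. These groups did not overlap, and the log2 change was -2.79 ± 0.59 (adjusted p = 0.00901), a call kept without any 1 library and lost in a fit of the 9 alone (0.114). *Ccnb2*, a mitotic cyclin, had 0 counts in all 4 libraries at day 91 and stood at 14.9, 0, 21, 0, and 10.8 CPM at day 8, at least 6.96-fold lower by a floor of 3 counts per library (adjusted p = 0.0794). *Aurkb*, a mitotic kinase, was at 5.48, 7.39, 3.45, and 57.8 CPM and at 39.1, 70.4, 130.0, 9.79, and 37 CPM (log2 -1.58, adjusted p = 0.0939), with mouse 7 inside the range of day 8. Without mouse 7 the list had 8 lower members, and without mouse 3, 5, 6, or 48 it had 1. *Pcna*, the polymerase clamp, did not pass, with 48.8 to 91.3 CPM at day 91 and 35.3 to 99.5 CPM at day 8. Among 16 crypt stem cell markers 1 passed, *Slc12a2*, an ion cotransporter (log2 -1.82, adjusted p = 0.0852, and 0.509 without mouse 48). Of 47 histone genes 1 fell, the variant *H2afy* (log2 -0.79, adjusted p = 0.0579), a count near the 1.88% of all genes lower, and 7 fell without mouse 7. In the crypt 0 proliferation genes passed, and *Mcm2* had a log2 change of 0.15 there (adjusted p = 0.96).

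Cytosolic ribosomal proteins included 13 that fell and 0 that rose of 103 tested, against 1.88% of all genes lower, with a median of -0.40 (-0.35 with members at the floor set to their bound). *Rpl14* was at 149, 159.8, 148, and 501 CPM at day 91 and at 469, 590.0, 1488, 341, and 585 CPM at day 8 (log2 -1.53 ± 0.34, adjusted p = 0.01). *Rpl4*, the most abundant member, was at 464, 593, 537, and 1205 CPM and at 1036, 1078, 2458, 853, and 1163 CPM (log2 -0.91 ± 0.25, adjusted p = 0.0424). In both genes mouse 48 was the highest library of all and mouse 7 the highest of day 91, inside the range of day 8. The other members that fell were *Rpl12*, *Rpl18*, *Rpl19*, *Rpl21*, its pseudogene copy *Rpl21-ps4*, *Rpl27*, *Rpl31*, *Rps12*, *Rps13*, *Rps19*, and *Rps24*, with log2 changes from -1.14 to -0.83, and reads of such genes and their pseudogenes may be mixed. Without mouse 48, or without mice 48 and 50, 0 of the list passed. Without mouse 7 there were 35, without mouse 5 or 6 there was 1, without mouse 3 there were 4, and in a fit of the villus libraries alone there was 1. The summed levels, 9984, 9804, 9187, and 21020.2 CPM at day 91 and 14799, 14438, 34273, 12092, and 19369 CPM at day 8, followed the same libraries as the proliferation genes, whose part in this result was not tested.

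Of 75 mitochondrial ribosomal proteins 1 rose and 4 fell, against 0.647% of all genes higher and 1.88% lower. Their fitted median of -0.14 was that of all probes, and with values at the floor set to their bounds the medians were -0.11 and 0. *Mrpl28* was at 19.9, 5.8, 15.3, and 12.2 CPM at day 91 and at 0, 4.69, 1.08, 0, and 1.44 CPM at day 8 (log2 3.11, adjusted p = 0.0202). *Mrpl54* was at 38.4, 40.1, 23, and 28.7 CPM and at 66, 60.7, 116, 121, and 57.4 CPM (log2 -1.38, adjusted p = 0.00901). Neither overlapped between days. The other members that fell were *Mrpl13*, *Mrpl58*, and *Mrps9*. There were 8 lower members without mouse 7, 2 without mouse 47 or 49, and 1 without mouse 3, 5, 6, or 48, and 3 higher ones without mouse 50.

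Immunoglobulin variable segments, which are joined in B cells and transcribed strongly in plasma cells of the villus core, included 6 that fell and 0 that rose of 166 tested, against 1.88% of all genes lower (median -0.77, or -0.62 with members at the floor set to their bound). *Igkv15-103* was at 6.48, 0, 4.6, and 10.3 CPM at day 91 and at 95.8, 424, 71.5, 40.4, and 104 CPM at day 8. The groups lay far apart, mouse 47 was the highest, and the log2 change was -4.70 ± 0.99 (adjusted p = 0.00901). *Igkv14-126* reached 279.8 CPM in mouse 46 and at most 27.4 CPM in the other 8 libraries (log2 -5.02, adjusted p = 0.0284, and 0.393 without mouse 46). The variable segments summed to 5023, 5314, 8663, and 3087 CPM at day 91 and to 11085, 9598, 12872, 7213, and 7583 CPM at day 8, where mouse 6 lay above mice 49 and 50. Plasma cell markers, 0 of 12 of which passed, summed to 6012, 11156, 11364, and 5131 CPM and to 8734, 8823, 10701, 5979, and 8783 CPM, with the groups overlapping throughout. B cell markers had 0 of 11 past the test. Variable segments resemble each other closely, and each mouse draws its own set, so single segments are uncertain. The list had 2 lower members without mouse 3 or 5 or without mice 48 and 50, 3 without mouse 48, 10 without mouse 7, and 9 without mouse 49.

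Of 12 matrix genes 3 fell and 0 rose, against 1.88% of all genes lower, with a median of -0.75. *Col1a1*, the alpha 1 chain of type I collagen, was at 123, 17.4, 34.1, and 154 CPM at day 91 and at 146, 96.2, 446, 203, and 234 CPM at day 8 (log2 -1.45 ± 0.32, adjusted p = 0.0119). Mice 3 and 7 lay within the range of day 8, and mouse 48 was again the highest. *Col3a1* (log2 -1.13, adjusted p = 0.0522) and *Col6a2* (from a mean of 56.8 to 28.4 CPM, adjusted p = 0.096) also fell, and the list had 0 lower members without mouse 48, mouse 5, or mice 48 and 50, 1 without mouse 3 or 6, and 2 without mouse 46 or 49. Of 13 heat shock and chaperone genes 2 fell (1.88% of all genes were lower), *Hsph1* (log2 -1.66, adjusted p = 0.0145) and *Hspa8* (-0.94, adjusted p = 0.039), which encode cytosolic chaperones of the Hsp110 and Hsp70 families. *Hsph1* was at 7.48, 8.44, 48.7, and 132 CPM and at 115, 77.4, 265, 96.2, and 246 CPM, with mouse 7 inside the range of day 8. None passed without mouse 3 or 5 or without mice 48 and 50, 1 passed without mouse 6 or 48, and 3 passed without mouse 7 or 49.

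Immediate early genes, which are transcribed within minutes of a stimulus, included 4 that rose and 0 that fell of 21 tested, against 0.647% of all genes higher, with a median of 0.72. *Fos*, a subunit of the factor AP-1, was at 141, 128, 36, and 16.4 CPM at day 91 and at 25, 14.1, 4.86, 24.3, and 43.7 CPM at day 8 (log2 1.80, adjusted p = 0.0522). *Junb*, its partner, was at 38.9, 51.7, 31.4, and 15.3 CPM and at 0, 13.1, 2.97, 5.53, and 25 CPM (log2 1.73, adjusted p = 0.0366), and *Zfp36*, an RNA-decay factor, rose with a log2 change of 1.22 (adjusted p = 0.0646). In both *Fos* and *Junb* mice 3 and 5 were the highest and mouse 7 lay within the range of day 8, as did mouse 6 in *Fos*. *Atf3*, a stress-induced factor, was at 99.2, 0.527, 8.81, and 0 CPM and at 0, 7.71, 2.16, 0, and 4.32 CPM (log2 3.06, adjusted p = 0.0278). Mouse 3 stood far above the other libraries, and the call was lost without it (adjusted p = 1.0). The list had 0 members past the test without mouse 3, 1 without mouse 5 or 48, 2 without mouse 46, and 3 without mice 48 and 50.

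Of 20 absorptive enterocyte markers 1 rose and 0 fell (median 0.10), against 0.647% of all genes higher, that member being *Apob*, the scaffold of chylomicrons. It was at 949.6, 771, 554, and 409 CPM at day 91 and at 215, 264, 94.2, 309.7, and 515 CPM at day 8 (log2 1.26 ± 0.32, adjusted p = 0.0284), with mouse 50 above mouse 7, and the call was lost without mouse 3 (0.171), 5 (0.126), or 48 (0.144). Since *Apob* is also on the list of fat digestion, it was the 1 member of 20 to rise there too, and *Fos* and *Junb* were the 2 of 12 villus tip genes that rose (median 0.65). *Fabp2*, the intestinal fatty acid-binding protein and the most abundant marker, had a log2 change of -0.21 (adjusted p = 0.797). Enteroendocrine markers summed to 574, 585, 539.9, and 599.8 CPM at day 91 and to 383, 445, 315, 428, and 409 CPM at day 8, so their sums did not overlap. Of all the gene lists summed, no other had sums without overlap, the separation was not tested, and the median change of the members was 0.15. Among 15 members only *Ghrl*, which encodes ghrelin, passed, at 74.3, 112, 45.2, and 181 CPM and at 48.3, 28.2, 8.09, 43.8, and 40.6 CPM (log2 1.64, adjusted p = 0.0437). Mouse 6 lay below mouse 46 in *Ghrl*, and the call was lost without mouse 5 (0.131), 7 (0.216), or 48 (0.175).

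Single members of other metabolic lists rose, where 0.647% of all genes were higher. *Insig1*, which restrains cholesterol synthesis, was at 45.4, 79.7, 31.8, and 38.6 CPM at day 91 and at 4.43, 14.8, 6.2, 5.11, and 28.6 CPM at day 8 (log2 1.93, adjusted p = 0.0354), and was 1 of 24 in its list. *G6pc*, which releases glucose from glucose 6-phosphate, was at 47.4, 55.4, 49, and 40.2 CPM and at 8.86, 9.05, 4.32, 4.25, and 33.8 CPM (log2 1.88, adjusted p = 0.0483), 1 of 16 genes of sugar digestion and transport. Both groups were separate, with mouse 50 the highest of day 8 in each. *Cox8a*, a subunit of cytochrome oxidase, was 1 of 78 oxidative phosphorylation genes (log2 2.21, adjusted p = 0.0319), and *Cyp4a10*, a fatty acid hydroxylase, 1 of 21 genes of the PPAR-alpha list (2.29, adjusted p = 0.0431). The zinc exporter *Slc30a1* (log2 1.22, adjusted p = 0.0319) and metallothionein *Mt1* (3.25, adjusted p = 0.0591) rose among 10 zinc genes, and the peptide transporter subunit *Tap2* (1.39, adjusted p = 0.0443) and its partner *Tapbp* (1.27, adjusted p = 0.0763) among 17 genes of antigen presentation. *Gbp2*, a guanylate-binding protein, fell (log2 -2.36, adjusted p = 0.0293) as 1 of 25 interferon-induced genes, where 1.88% of all genes were lower. Each of these calls was lost without at least 1 of mice 3, 5, 6, 7, and 48, with adjusted p values up to 0.255.

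The lists with 0 members past the test in either direction, at these depths, were those of goblet, tuft, T, B, plasma, mast, and red blood cells, macrophages, smooth muscle, endothelium, neurons and glia, adipocytes, Brunner glands, pancreatic acini, butyrophilin-like genes, epithelial defense genes, junctions, peptide digestion, iron, vitamin D and calcium, the unfolded protein response, proteasome subunits, and mitochondrially encoded transcripts. Summed goblet markers, for example, were 5013, 5119.5, 4896, and 4519 CPM at day 91 and 4278, 4222, 2655, 5844, and 4947 CPM at day 8. The epithelial defense list had a fitted median of -3.54 but -0.19 with the 10 members at the floor in 1 group set to their bounds, so its fitted median reflected genes near 0 counts.

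**Figure D4:**
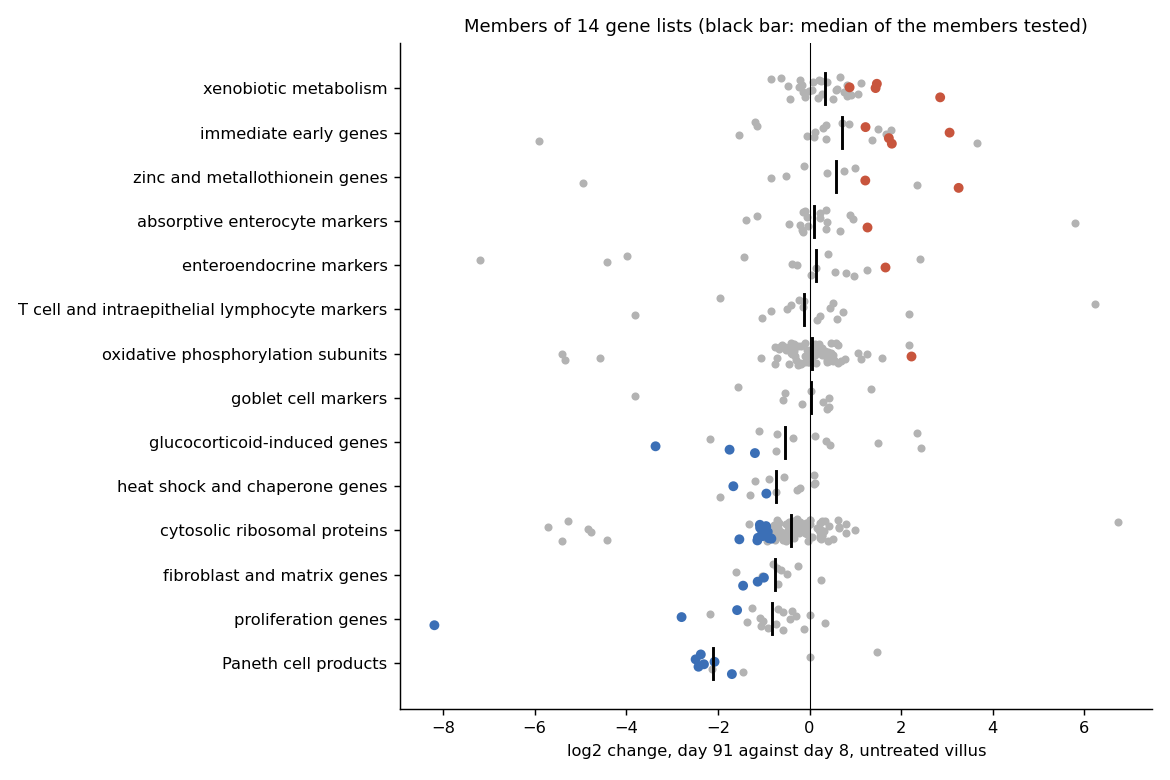
Log2 change from day 8 to day 91 of each member tested in 14 gene lists, with members past the test in red (higher) and blue (lower), other members in grey, and the median as a black bar. Of the Paneth cell products 6 of 10 were lower and of the xenobiotic genes 4 of 32 higher.

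The DEGs with the smallest p among those without overlap included genes of other functions. *Mss51*, a mitochondrial protein gene of muscle, had 0 counts in all 4 day 91 libraries and stood at 8.45, 9.39, 15.9, 37.4, and 11.8 CPM at day 8, at least 12.3-fold lower by the floor of 3 counts per library (adjusted p = 0.00331). *Camkk1*, a kinase of calcium signaling, also had 0 counts at day 91 and was at least 10.6-fold lower (adjusted p = 0.00901). Both calls held without any 1 library.

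*Mtfr1*, a regulator of mitochondrial fission, was at 42.9, 69.6, 67.1, and 67.3 CPM at day 91 and at 176, 189, 164, 101, and 131 CPM at day 8 (log2 -1.30 ± 0.25, adjusted p = 0.00331). *Med1*, a subunit of the Mediator complex, was at 0, 5.28, 22.2, and 8.03 CPM and at 64.4, 47.3, 61.8, 26.4, and 40.3 CPM (log2 -2.34 ± 0.45, adjusted p = 0.00331). In both genes every day 91 library lay below every day 8 library, which was a condition for naming them here. The histone methyltransferase *Kmt2d* (log2 -0.98, adjusted p = 0.00901) and the corepressor *Trim28* (-1.24, adjusted p = 0.00901) fell, the latter losing its call without mouse 48 (0.144). Among the higher genes were *Degs2*, a sphingolipid desaturase (log2 2.10, adjusted p = 0.0142, and 0.113 without mouse 5), *Surf1*, an assembly factor of cytochrome oxidase (2.11, adjusted p = 0.0162), the nucleic acid-binding gene *Cnbp* (1.19, adjusted p = 0.0149), and *Tob1*, an antiproliferative gene. *Tob1* was at 468, 541, 400.4, and 357 CPM at day 91 and at 133, 166, 65.6, 189, and 275 CPM at day 8 (log2 1.41, adjusted p = 0.0169, and 0.1 without mouse 5).

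The same days were compared in other libraries to see which changes of the untreated villus were also called there. In the villus at 0.1 ppm 38 probes of 34 genes were called (0.144% of probes), in the villus at 1.4 ppm 498 probes of 470 genes (1.89%), and in the untreated crypt 10 probes of 8 genes (0.0379%). By the probe of highest count of each gene, 0.0368% of genes were higher and 0.111% lower at 0.1 ppm, 1.26% and 0.811% at 1.4 ppm, and 0.00526% and 0.0316% in the crypt. The groups of the 2 days did not overlap for 0.641% of probes at 0.1 ppm, 1.99% at 1.4 ppm, and 0.77% in the crypt. The 0.1 and 1.4 ppm libraries came from other mice, and the crypt libraries came from the same mice as the villus except mouse 8. At 0.1 and 1.4 ppm the days also differed in the length of Cr(VI) exposure, 90 against 7 days. Exposure length and the other differences between days cannot be told apart there, for shared, missing, or opposite calls alike. Genes named from here on because they were called in several comparisons were chosen after their values were seen.

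With the villus at 0.1 ppm the untreated villus shared 8 called probes of 7 genes, 1.24% of its 644 and 21.1% of the 38, all changed in the same direction. The 7 genes were *Ephx1*, *Gsta4*, and *Ugt2b38*, which rose, and *Fkbp5*, *Reg2*, *Nsl1*, and *Ccna2*, which fell. *Ccna2* was shared by a further probe only (log2 -2.12, adjusted p = 0.0895, in the untreated villus). Its probe of highest count passed at 0.1 ppm (-2.47, adjusted p = 0.038) but not in the untreated villus (-0.73, adjusted p = 0.501). The untreated villus call of *Nsl1* was lost without mouse 5 (adjusted p = 0.1177) or 48 (0.2198). With the villus at 1.4 ppm 37 probes of 33 genes were shared (5.75% of 644 and 7.43% of 498), 29 in the same and 8 in the opposite direction. *Ephx1*, *Gsta4*, *Ugt2b38*, and *Fkbp5* were called in all 3 villus comparisons.

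*Ugt2b38* was at 145 to 298 CPM (median 233 CPM) at day 91 and at 1.41, 3.14, 123, 0, and 15.1 CPM at day 8 in the villus at 0.1 ppm (log2 3.24 ± 0.74, adjusted p = 0.0299). At 1.4 ppm it was at 6.02, 42.5, 392, 193, and 188 CPM at day 91 and at 3.71, 10.1, 0, 0, and 0 CPM at day 8 (log2 5.82 ± 0.96, adjusted p = 8.27e-05). At 0.1 ppm the groups did not overlap, and at 1.4 ppm 1 library of day 91 lay within the range of day 8. In the crypt it stayed between 8.49 and 50.8 CPM at day 91 and at or under 8.98 CPM at day 8, below the day 91 villus (log2 2.86, adjusted p = 0.52). The change in the untreated villus differed from that at 0.1 ppm by -0.13 ± 1.01 on the log2 scale (adjusted p = 1.0), and its difference from that at 1.4 ppm was not tested.

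*Gsta4* was at 239 to 524 CPM at day 91 and 84.4 to 156 CPM at day 8 in the villus at 0.1 ppm (log2 1.66, adjusted p = 0.0573) and at 258 to 526 CPM and 36.7 to 190.1 CPM at 1.4 ppm (2.06, adjusted p = 0.00191). Neither comparison overlapped, and in the crypt, where the change of 1.27 did not pass (adjusted p = 0.51), the levels of 132 to 215 CPM at day 91 also lay above those of 40.6 to 85.8 CPM at day 8. *Ephx1* passed at 0.1 ppm by 2 of its 3 probes and at 1.4 ppm by all 3, with log2 changes from 1.24 to 1.61. *Fkbp5* was at 2.45 to 38.1 CPM at day 91 and 37.9 to 133 CPM at day 8 at 0.1 ppm, where 1 library of each day met in level (log2 -1.98, adjusted p = 0.0246), and at 16.8 to 27.9 CPM and 47 to 133 CPM at 1.4 ppm (-2.11, adjusted p = 0.00195). In the crypt it was at 59.9, 52.4, 40.6, 46.6, and 42.3 CPM at day 91 and at 241, 96.5, 210.2, 164, and 141 CPM at day 8 (log2 -1.81 ± 0.38, adjusted p = 0.0175). By this probe *Fkbp5* was lower at day 91 in each of the 4 comparisons, whereas its further probe passed in the untreated villus and crypt but not at 0.1 ppm (-1.20, adjusted p = 0.628) or 1.4 ppm (-1.25, adjusted p = 0.418). By the first probe the changes in the untreated villus and at 0.1 ppm differed by 0.24 ± 0.62 (adjusted p = 1.0). Within 300 bases around the starts of *Ephx1*, *Fkbp5*, and *Ugt2b38*, the 3 of these genes with an entry, 0 windows held the antioxidant response element TGACNNNGC, found in 12.4% of all promoters on either strand, and 0 held the palindromic glucocorticoid response element, found in 0.475%. With 3 genes chosen after their values were seen, 0 was likely at these shares, and no conclusion is drawn.

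With the untreated crypt the villus shared 4 called probes (0.621% of 644 and 40% of 10), both probes of *Fkbp5* and 1 probe each of *Reg2*, a regenerating protein gene, and *1700109H08Rik*, a gene without a given function. *Reg2* was at 0, 0, 0, and 20.7 CPM in the villus at day 91 and at 85.4, 48.6, 31.8, 151, and 0 CPM at day 8 (log2 -3.40, adjusted p = 0.083). Mouse 50 at day 8 had none, and mouse 7 was the only day 91 library with counts. The villus call of *Reg2* was lost without mouse 3, 5, 6, 46, 47, 48, or 49 (adjusted p from 0.1069 to 0.2439). It was also lost with DESeq2 (0.3302) and in fits of the villus libraries alone (0.134) or the 9 libraries alone (0.1808). *1700109H08Rik* was at 6.48, 34.3, 12.6, and 9.95 CPM and at 53.9, 75.1, 51.5, 64.7, and 41 CPM, without overlap (log2 -1.89, adjusted p = 0.0282, and 0.121 without mouse 3). In the crypt the log2 change of this probe was -2.08 (adjusted p = 0.0146), and in the villus at 0.1 and 1.4 ppm its changes of -0.35 and -0.41 did not pass. A further probe of *1700109H08Rik* passed neither in the villus (-0.41, adjusted p = 0.639) nor in the crypt (-0.76, adjusted p = 0.676).

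The 8 probes called in opposite directions in the untreated villus and at 1.4 ppm belonged to *Wdr44*, *Znfx1*, *Hnrnpul2*, *Txnl1*, *Sypl*, *Safb*, *Fat1*, and *Ap3m2*. *Wdr44*, which encodes a WD repeat protein of vesicle transport, was at 5.98, 12.1, 45.2, and 31.7 CPM at day 91 and at 77.7, 98.6, 51.3, 65.5, and 21.1 CPM at day 8 in the untreated villus, with mouse 50 inside the range of day 91. Its log2 change was -1.32 there (adjusted p = 0.0489, lost without mouse 3, 5, 46, or 47) and 1.62 at 1.4 ppm (adjusted p = 0.00513). *Znfx1*, an RNA helicase gene, changed by -1.01 (adjusted p = 0.0174) and by 1.03 (adjusted p = 0.0064). A further probe of *Znfx1* passed in neither comparison (1.38, adjusted p = 0.587, and -0.64, adjusted p = 0.837). Further probes of *Safb*, *Sypl*, and *Fat1* also passed in neither. *Ap3m2* was the only 1 of the 8 that rose in the untreated villus (2.74, adjusted p = 0.0815) and fell at 1.4 ppm (-3.50, adjusted p = 0.0832).

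The same lists were counted in the other comparisons, where 0.0368% of all genes were higher and 0.111% lower at 0.1 ppm, 1.26% and 0.811% at 1.4 ppm, and 0.00526% and 0.0316% in the crypt. Of the 32 xenobiotic genes 1 was higher at 0.1 ppm and 7 at 1.4 ppm, and none was lower in either. Of the 14 glucocorticoid-induced genes 2 were lower in the crypt, 1 at 0.1 ppm, and 2 at 1.4 ppm, and none was higher. Of the 10 Paneth cell products 0 were lower at 0.1 ppm and 1 at 1.4 ppm, with median changes of -1.67 and -1.70 beside -2.10 in the untreated villus. Of the 20 proliferation genes 3 were lower at 0.1 ppm (median -1.34) and 0 at 1.4 ppm (median -1.05), and of the 47 histone genes 3 and 7 were lower. Of the 103 cytosolic ribosomal proteins 0 were lower at 0.1 ppm (median -0.46), 8 at 1.4 ppm (median -0.49), and 0 in the crypt (median 0.17). Their median in the untreated villus was -0.40. Of the 166 immunoglobulin variable segments 1 was lower at 0.1 ppm, 17 at 1.4 ppm, and 2 in the crypt. Of the 75 mitochondrial ribosomal proteins 1 was lower at 1.4 ppm. Of the 20 absorptive enterocyte markers, 1 of which rose in the untreated villus, 0 were higher and 1 was lower at both 0.1 and 1.4 ppm. Of the 16 genes of sugar digestion and the 24 of cholesterol synthesis 1 each was lower at 1.4 ppm, and of the 20 fat digestion genes 1 was higher there. Of the 20 clock genes 1 was lower at 0.1 ppm, and 1 was higher and 2 were lower at 1.4 ppm. At 1.4 ppm 4 of 17 NRF2 targets and 2 of 21 genes of the PPAR-alpha list were higher. The matrix, stem cell, heat shock, villus tip, zinc, enteroendocrine, antigen presentation, interferon, and oxidative phosphorylation lists had 0 members past the test in these 3 comparisons. Some lists with 0 members past the test in the untreated villus had calls at 1.4 ppm. Higher there were 2 of 23 junction genes and 2 of 12 iron genes. So were 1 of 11 vitamin D and calcium genes and 1 of 39 proteasome subunits. Lower there were 2 of 11 B cell markers and 2 of 20 epithelial defense genes. Of 20 peptide digestion genes 1 was lower at 0.1 ppm and 1 at 1.4 ppm. Of the 21 immediate early genes 0 were higher at 0.1 ppm and 1 at 1.4 ppm. *Fos*, *Junb*, and *Apob* had log2 changes of -0.54, -0.03, and 0.08 at 0.1 ppm and of 0.37, 0.15, and 0.34 at 1.4 ppm, none past the test.

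**Figure D5:**
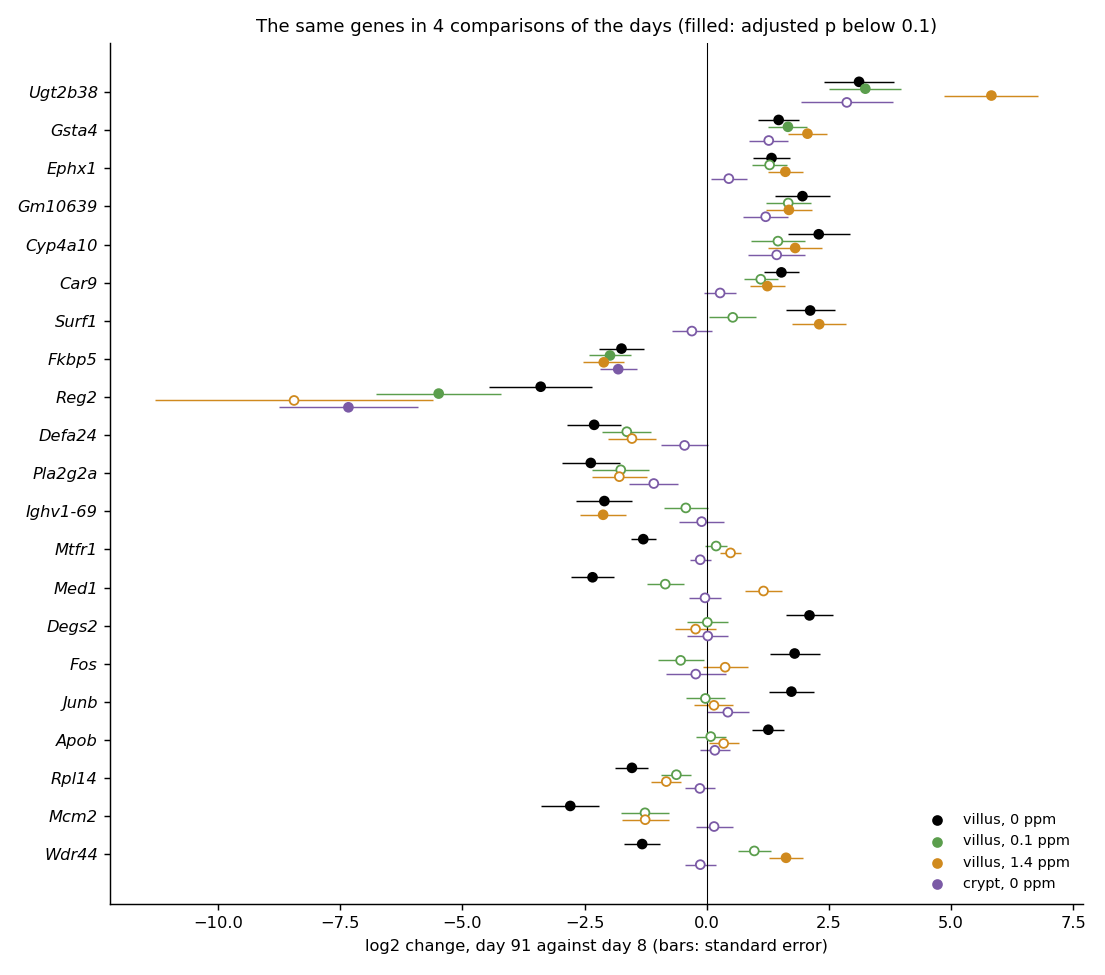
Log2 change from day 8 to day 91 with its standard error for 21 genes in the untreated villus (black), the villus at 0.1 ppm (green) and 1.4 ppm (orange), and the untreated crypt (purple), filled where the adjusted p was below 0.1. By the probe shown *Fkbp5* was lower in all 4 comparisons and *Ugt2b38* and *Gsta4* were higher in the 3 villus comparisons, while *Wdr44* was lower at 0 ppm and higher at 1.4 ppm.

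The difference between the changes of untreated villus and 0.1 ppm villus was called for 11 probes (0.0417%, with 0.0158% of genes higher and 0.0211% lower by their probe of highest count), and that between villus and crypt for 0 probes by edgeR, with 2214 probes at an unadjusted p below 0.05 and 124 genes by DESeq2. Villus and crypt came from the same mice. In a fit separate from that edgeR fit, with mouse as a block, 4 genes differed, against 0 in the separate fit without the block. These were *Igkv15-103* (log2 difference -3.38), *Defa32* (-2.44), *Mcm2* (-3.04), and *Igkv1-135* (-2.13), each with an adjusted p of 0.0535 and each with a more negative change in the villus than in the crypt. Among the 11 probes that differed from 0.1 ppm, *Mtfr1* differed by -1.49, *Mat2a*, which makes S-adenosylmethionine, by -1.37, *Rom1*, known from photoreceptors, by -2.97, and *Wdr44* by -2.29. *Mat2a* was lower at day 91 in the untreated villus (log2 -0.90, adjusted p = 0.0202), *Rom1* was too (-2.37, adjusted p = 0.00986), and neither passed at 0.1 ppm (0.46 and 0.59). In a fit of the villus libraries alone 0 of the 11 were called.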

How the data were processed

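Read counts per TempO-Seq probe, deposited by the authors without normalization, were taken from 1 table of 30146 probes (21450 genes) and 137 libraries. Their processing notes name bcl2fastq 2.17.1.14 and Bowtie, and the genome build behind the probes is not given in the sources used here. All 137 libraries in 28 groups were fitted with edgeR 4.0.16 (R 4.3.3) by a quasi-likelihood test (legacy = FALSE) after filterByExpr and TMM scaling, without covariates, on 26365 probes. P values were two-sided and Benjamini-Hochberg adjusted over all probes, with a threshold of 0.1, as in the study's own analysis. DESeq2 1.42.0 and other settings were alternatives. Library totals ran from 1463938 to 7199801 counts, reads were not collapsed to molecules, and intervals cover spread between mice only. Each gene was represented by its probe of highest total count. Named genes were the 15 higher and 15 lower without overlap with the smallest p, up to 4 members by p and 2 by level of each list, and compartment markers, of which some are not reported here. The comparison, its members, and the gene lists were chosen with earlier results of these data known. Gene positions are GENCODE M21 on GRCm38, and promoters are RefSeq. Mouse numbers in the labels tie the villus and crypt library of a mouse. The fits were tested on simulated data, with outcomes that are not reported here. A fit without mice 48 and 50 and a fit of the villus libraries alone for the difference from 0.1 ppm were added after seeing the data.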

Additional observations from a re-analysis of the deposited data

Results flagged for a closer look

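Single libraries stood far from the rest of their group in 29 of 240 groups of values tested with Dixon's ratio (12.1%), where chance flags about 1 in 20. Mouse 7 was far above the other day 91 libraries in *Zbtb16* (8.798 CPM), *Reg2* (20.66), *Nsl1* (3.443), *Aurkb* (57.76), *Rpl14* (500.7), and *Rps24* (200.1), and in the summed CPM of cytosolic ribosomal proteins (21020), pancreatic acinar products (58457), proliferation genes (706.1), and red blood cell genes (8.415). It was far below them in butyrophilin-like and epithelial T cell ligand genes (2315). In *Zbtb16*, *Reg2*, and the red blood cell genes the other day 91 libraries were at 0 CPM, where the ratio flags any count.

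Mouse 48 was far above the other day 8 libraries in *Slc12a2* (120.1 CPM), *Rpl14* (1488), *Rps24* (409.8), *Rpl4* (2458), and *Trim28* (471.3), and in the summed CPM of crypt stem cell markers (975.5) and mast cell and eosinophil markers (91.72). It was far below them in butyrophilin-like genes (1599) and in antigen presentation genes (1823). Mouse 50 was far above them in *Tapbp* (77.28), *G6pc* (33.84), and summed B cell markers (487.4).

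Other single libraries apart from their group were mouse 47 in *Igkv15-103* (424.4 CPM), mice 46 and 6 in *Igkv14-126* (279.8 and 6.897), mouse 3 in *Atf3* (99.19, high) and *Mtfr1* (42.87, low), and mouse 49 in *Mss51* (37.44). In *Igkv14-126* the day 91 libraries other than mouse 6 were at 0 CPM, where the ratio flags any count.

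The change between days differed between the untreated and the 0.1 ppm villus for 11 probes by a test of the difference itself, with log2 differences (untreated minus 0.1 ppm) of 6.83 for *Malt1*, -2.97 for *Rom1*, 10.54 for *Igkv4-63*, -1.49 for *Mtfr1*, -10.75 for *Arrdc2*, 11.14 for *Tmem222*, -2.29 for *Wdr44*, -1.37 for *Mat2a*, 9.44 for *Dip2a*, 5.89 for *Top2a*, and -4.14 for *Ikbkg*. *Igkv4-63* and *Dip2a* had 0 counts in all 5 libraries at 0.1 ppm and day 91, so that their fitted differences depend on the prior count. In the untreated villus at day 91, only mouse 5 had counts of *Igkv4-63* (81.8 CPM). The probes of *Tmem222* and *Arrdc2*, with the differences largest in size, did not pass in the untreated villus itself (log2 3.19, adjusted p = 0.151, and -7.03, adjusted p = 0.112).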

How the results depend on the processing

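As reported, 620 genes differed between days in the untreated villus (196 higher, 425 lower). DESeq2 gave 1675 (627 and 1062), a mean count of at least 10 gave 1046 (404 and 649), and thinned counts gave 1522 (529 and 1008). The villus libraries alone gave 119 (46 and 73), the 9 libraries alone 18 (12 and 6), and a threshold of 0.05 gave 301 (91 and 210). Higher genes were 330 with DESeq2 size factors, 296 with the log10 total count as a covariate, and 103 with the default form of the quasi-likelihood fit, and lower genes were 281 with probes summed for each gene. Without mice 48 and 50 there were 373 higher and 255 lower. Leaving out 1 library at a time gave 142 to 1109 genes, 48 to 472 higher and 94 to 830 lower. Every gene called by its probe of highest count kept its sign in every setting where it was tested. The causes of these shifts were not tested.

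The untreated crypt had 8 genes, 24 with DESeq2 and 1 with the default form. The villus at 0.1 ppm had 34 and 337 with DESeq2, and that at 1.4 ppm 470, 1065 with DESeq2, and 788 with thinned counts. The difference between villus and crypt had 0 genes, 124 with DESeq2, 11 with thinned counts, 10 with the default form, 14 without mice 48 and 50, and 4 in a separate fit with the mouse as a replicate block, a pairing that rests on the labels. The difference between untreated and 0.1 ppm villus had 11 genes, 324 with DESeq2, 7 with the total count as a covariate, 95 with thinned counts, 45 with the default form, 103 without mice 48 and 50, and 0 in the villus libraries alone. Low depth limits genes near 3 counts, whose fitted changes depend on the prior count.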
